A study of Homo sapiens with 9 samples.

Results

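The FKBP genes encode proteins with the domain of a peptidyl-prolyl isomerase, an enzyme that turns proline bonds in other proteins. Members of the family bind the drugs rapamycin and FK506, to degrees not measured here. 10 members were read from the deposited table of read counts by gene symbol: FKBP1A, FKBP1B, FKBP2, FKBP3, FKBP4, FKBP5, FKBP7, FKBP8, FKBP11 and FKBP14. They are 10 of 58347 genes in the table, and all 10 passed the filter on low counts. Rapamycin binds FKBP12, the product of FKBP1A, and the pair then binds the FRB domain of the kinase mTOR and inhibits mTORC1. FKBP4 and FKBP5 encode FKBP52 and FKBP51, partners of the chaperone HSP90 in steroid receptor complexes, while other members work in the endoplasmic reticulum, the nucleus or at the mitochondrial surface.

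RNA was sequenced in K562, a human erythroleukaemia line, to ask whether BAF, a chromatin remodelling complex, can raise HBG1 when it is brought to that gene's promoter. Every library came from K562-FIRE cells, which carry dCas9, an MS2-Fkbp fusion with 1 Fkbp unit and an SS18-Frb fusion, each driven by the EF1a promoter. Their guide RNA (sgRNA) was either aimed at the HBG1 promoter or matched no target. Treatment lasted 24 h, with rapamycin at 10 nM or with DMSO. The groups were the HBG1 sgRNA with DMSO (n = 3), the HBG1 sgRNA with rapamycin (n = 3), the non-targeting sgRNA with DMSO (n = 1) and the non-targeting sgRNA with rapamycin (n = 2). No library analysed here lacks the fusion parts. The rapamycin that joins Fkbp to Frb is the same drug that acts on mTORC1, so these actions cannot be told apart in these groups. The labels do not say that replicates were separate cultures, so p-values measure only the spread between these samples. In bulk RNA, fewer cells of a type and less RNA per cell cannot be told apart.

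Libraries held 19797409 to 31619671 counts. All 10 erythroid markers examined were at 1 CPM or more in every library, CPM being the read count scaled to library depth. Their summed level, which includes HBG1 and HBG2, was 4240 to 4810 CPM with the HBG1 sgRNA and DMSO and 8180 to 9360 CPM with rapamycin. With the non-targeting sgRNA it was 22700 CPM with DMSO and 24600 to 25000 CPM with rapamycin. Of these 10 markers, 4 rose and 1 fell with rapamycin under the HBG1 sgRNA at an adjusted p under 0.05 (edgeR quasi-likelihood). Of all genes, 2.75% passed higher and 4.05% lower. The 4 were GATA1, ALAS2, HBG2 and HBG1, the gene at which the guide was aimed, and TFRC fell. Of 9 markers of T cells, B cells, epithelium, fibroblasts, endothelium and liver, 6 reached 1 CPM in every library, EPCAM among them at 39.3 to 45.2 CPM by group mean. The summed level of the 9 was 58.5 to 80.2 CPM, and none of them was at 0 in all libraries. Of the 9, 6 were tested, and 0 of these passed the rapamycin test in edgeR (1 at an unadjusted p under 0.05). The part of these and the erythroid genes in the results was not tested. The guides differed in globin level before any rapamycin. HBG1 was at 137 to 436 CPM in the HBG1 sgRNA libraries with DMSO and at 8230 CPM in the non-targeting DMSO library. Rapamycin libraries had 1530 to 2450 CPM with the HBG1 sgRNA and 8850 to 8940 CPM with the non-targeting one. The guide and any other difference between these cells cannot be told apart.

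Levels differed widely within the family. Per kilobase of merged exons, the median over the 9 libraries was 100 CPM per kb for FKBP1A and 97.9 for FKBP8, the outer mitochondrial membrane member that binds BCL2. The ranges of these 2 genes overlapped, from 80.8 to 112 for FKBP1A and from 82.1 to 112 for FKBP8. A middle set followed, with FKBP3 at 18.3, FKBP5 at 17.9, FKBP2 at 16.6 and FKBP4 at 14.7 CPM per kb, each range overlapping that of the next gene. FKBP14 at 3.97 stood apart from its neighbours on both sides. FKBP11 at 1.7, FKBP7 at 1.31 and FKBP1B at 0.871 CPM per kb were lowest, and their ranges overlapped from one to the next. The highest median was 115 times the lowest. With the longest coding transcript of each gene as its length, a choice made after seeing the data, FKBP11 read 8.03 CPM per kb and came seventh in the order, ahead of FKBP14 at 4.26. With those lengths FKBP7 at 1.43 and FKBP1B at 1.45 changed places as the lowest, and FKBP2 at 26.6 and FKBP3 at 24.6 also changed places. FKBP1A, FKBP5, FKBP8 and FKBP4 together held 87.4% to 90.4% of the family's counts in each library.

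**Figure D1:**
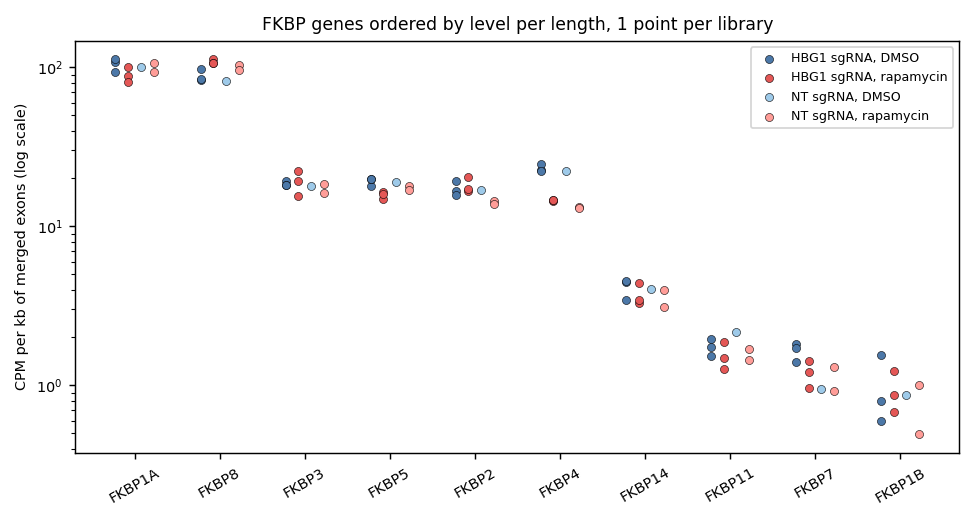
Level of each FKBP gene per kilobase of merged exons, in CPM per kb on a log axis, with 1 point per library coloured by guide and treatment. FKBP1A and FKBP8 lie near 100 in all groups, and FKBP1B, FKBP7 and FKBP11 lie lowest with merged exons as the length.

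With the HBG1 sgRNA, 3 of the 10 genes passed an adjusted p of 0.05 between rapamycin and DMSO. FKBP4 and FKBP5 fell, FKBP8 rose, and FKBP4 had the largest change of the family. Of all 23675 genes tested, 6.80% passed in either direction, 2.75% higher and 4.05% lower. At an unadjusted p under 0.05 there were 4 members, and 20.8% of all genes. The median change of the 10 members was -0.17 on the log2 scale, beside 0.02 over all genes. Tests were edgeR quasi-likelihood tests with Benjamini-Hochberg adjustment over all genes tested. The model held no replicate term, although same-numbered HBG1 sgRNA libraries deviated together. With the replicate number as a block over those 6 libraries, 17.1% of all genes passed.

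**Figure D2:**
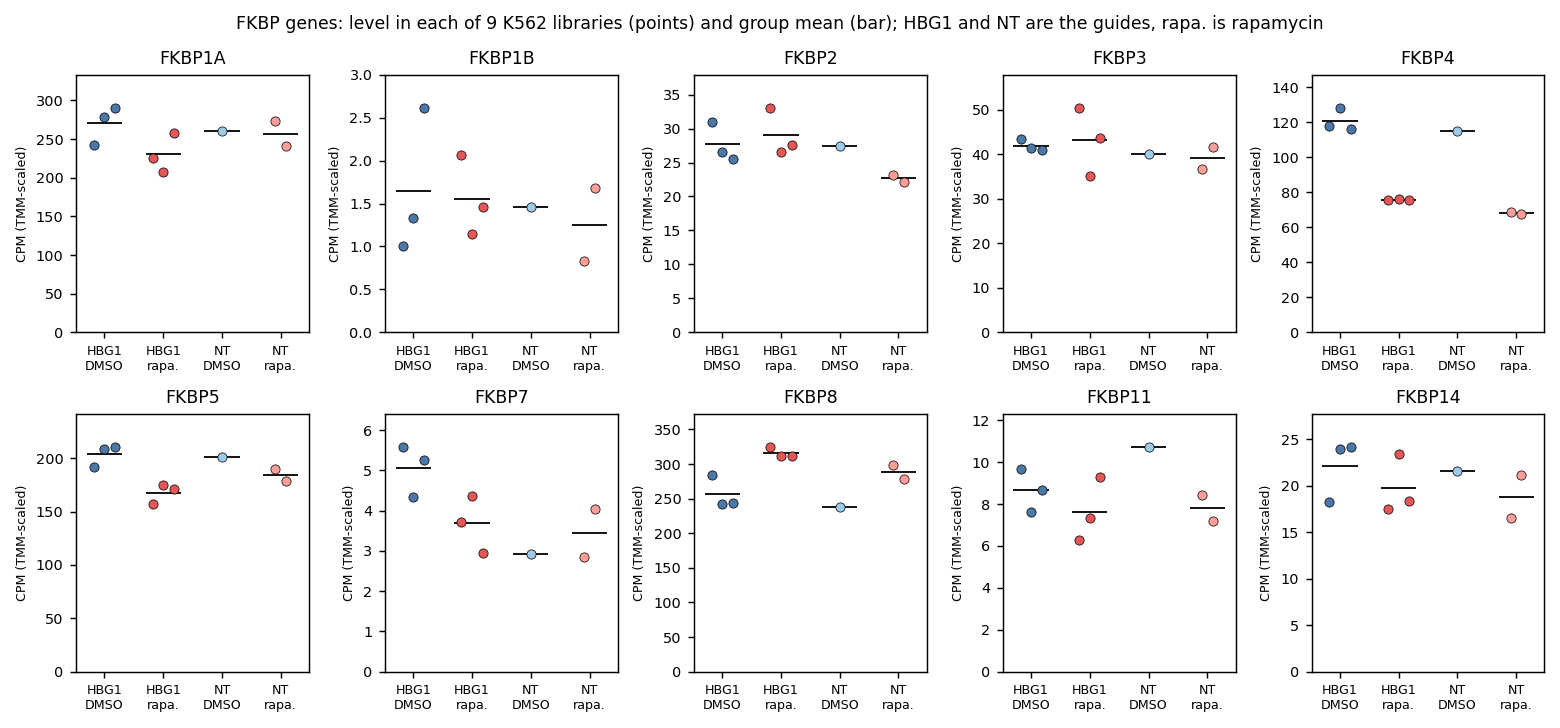
CPM scaled by TMM for each FKBP gene, 1 point per library and a bar at the group mean, with each vertical axis starting at 0. FKBP4 points under rapamycin lie at 67.5 to 76.2 CPM and under DMSO at 115 to 128 CPM.

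FKBP4 (ENSG00000004478, chromosome 12, 2794953 to 2805423, plus strand) encodes FKBP52, a co-chaperone that joins HSP90 through its tetratricopeptide (TPR) repeats and helps steroid receptors to reach the nucleus. It was at 118, 128 and 116 CPM in the HBG1 sgRNA libraries with DMSO and at 75.4, 76.2 and 75.6 CPM with rapamycin. With the non-targeting sgRNA it was at 115 CPM with DMSO and at 68.9 and 67.5 CPM with rapamycin. All 5 rapamycin libraries were below all 4 DMSO libraries, and the 3 rapamycin libraries with the HBG1 sgRNA were nearly level with each other. The log2 fold change with the HBG1 sgRNA was -0.67 (SE 0.07, adjusted p = 0.000109, edgeR quasi-likelihood), 0.629 times the DMSO level. It was lower in 3 of 3 pairs of equal replicate number, by -0.64, -0.74 and -0.61. With the non-targeting sgRNA the change was -0.76, untested against a single DMSO library.

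3 annotated transcripts lie on the strand opposite to FKBP4 and share some of its exon bases. The one with the most counts was AC005841.1, which shares 285 exon bases, 5.5% of the FKBP4 exons. It was at 35.9, 42.9 and 37.0 CPM with DMSO and at 22.2, 24.1 and 23.8 CPM with rapamycin under the HBG1 sgRNA. Its log2 fold change of -0.72 (SE 0.10) passed the same edgeR test with an adjusted p of 0.000549. The counting strand is not given in the sources used here, so reads of FKBP4 and of this antisense transcript cannot be told apart over the shared bases. ITFG2-AS1 changed by -0.80 (adjusted p = 0.118) and AC092471.1 by -0.66 (adjusted p = 0.0619), and neither passed the edgeR test.

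FKBP5 (ENSG00000096060, chromosome 6, 35573585 to 35728583, minus strand) encodes FKBP51, the HSP90 partner that lowers hormone binding by the glucocorticoid receptor and is itself a glucocorticoid-induced gene. It was at 192, 209 and 210 CPM with DMSO and at 157, 175 and 171 CPM with rapamycin under the HBG1 sgRNA. The non-targeting libraries read 201 CPM with DMSO and 190 and 179 CPM with rapamycin. Groups did not overlap with either guide, although the highest rapamycin value of 190 lay close under the lowest DMSO value of 192. The log2 fold change with the HBG1 sgRNA was -0.28 (SE 0.07, adjusted p = 0.0281, edgeR quasi-likelihood), and the 3 pairs gave -0.29, -0.26 and -0.30. The untested change with the non-targeting sgRNA was -0.13. The call was lost without scaling (adjusted p = 0.0633) and when 1 of 4 libraries was left out, DMSO replicate 2 (0.129), DMSO replicate 3 (0.121), rapamycin replicate 1 (0.0625) or rapamycin replicate 3 (0.0827).

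FKBP5 is the member that passed the test and has start sites in the RefSeq promoter table (GRCh38.p14), and the 250 bases before each of its 2 start sites are shown for that reason. The first window is chr6:35728584-35728833 and the second chr6:35688916-35689165, both on the minus strand and printed 5′ to 3′. Capitals mark matches on either strand to an E-box, a CCAAT box, a GC box, a heat shock element core or an ATF4 element, whose letters are given after the sequences.
FKBP5 first window: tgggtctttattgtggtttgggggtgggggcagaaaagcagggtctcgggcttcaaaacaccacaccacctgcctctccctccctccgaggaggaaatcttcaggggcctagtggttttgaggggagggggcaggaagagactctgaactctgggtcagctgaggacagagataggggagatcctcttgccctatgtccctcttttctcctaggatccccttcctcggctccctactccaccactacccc
FKBP5 second window: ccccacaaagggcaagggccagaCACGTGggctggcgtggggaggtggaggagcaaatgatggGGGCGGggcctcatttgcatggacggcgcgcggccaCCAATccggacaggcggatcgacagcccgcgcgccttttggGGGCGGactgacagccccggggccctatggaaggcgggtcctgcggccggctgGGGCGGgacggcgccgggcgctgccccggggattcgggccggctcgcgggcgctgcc
The first window held none of these letters, and the second held an E-box, a CCAAT box and GC boxes. Among 35116 promoters of the same table, each read from 250 bases before to 50 after the start site, 7.26% held an E-box (CACGTG on both strands). A CCAAT box (those letters or their complement) was in 34.6%, and a GC box (GGGCGG or its complement) in 45.0%. A heat shock element core was in 13.5% of promoters, searched as GAANNTTC and TTCNNGAA. An ATF4 element, searched as TGATGNAA on both strands, was in 3.62%. No heat shock element core was found in the windows of the 7 members present in the table. FKBP4, FKBP8 and FKBP14 have no window there and were not searched. These matches are a description of letters only.

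The level of FKBP5 relative to FKBP4, both per kilobase, was computed after the values were seen. It was 0.795, 0.799 and 0.885 in the HBG1 sgRNA libraries with DMSO and 0.85 in the non-targeting DMSO library. With rapamycin it was 1.02, 1.12 and 1.1 under the HBG1 sgRNA and 1.34 and 1.29 under the non-targeting sgRNA. With merged exons as the lengths, FKBP4 was thus the higher of these HSP90 partners in all 4 DMSO libraries. FKBP5 was the higher in all 5 rapamycin libraries. Which gene is higher rests on the lengths taken, while the relative shift between treatments does not.

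**Figure D3:**
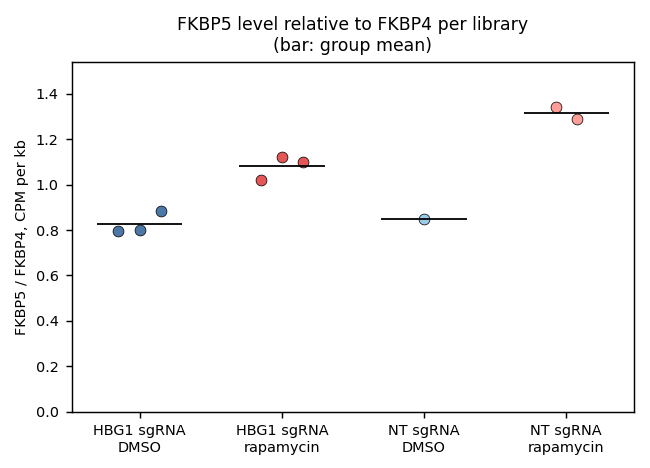
FKBP5 level divided by FKBP4 level, both in CPM per kb of merged exons, 1 point per library with a bar at the group mean and the axis starting at 0. The 4 DMSO libraries lie at 0.795 to 0.885 and the 5 rapamycin libraries at 1.02 to 1.34.

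HSP90 and its other co-chaperones were described as a list of 15 genes. With the HBG1 sgRNA 7 of the 15 fell and 0 rose, by the edgeR quasi-likelihood test. At an unadjusted p under 0.05 there were 13, beside 20.8% of all genes. The median change was -0.29 on the log2 scale, beside 0.02 over all genes. Negative changes were 14 of 15, beside 11284 of all 23675 genes. AHSA1, which stimulates the ATPase of HSP90, changed by -0.58 (SE 0.09, adjusted p = 0.00141). HSP90AA1, the inducible HSP90 gene, changed by -0.49 (SE 0.08, adjusted p = 0.0025), and PPID, a cyclophilin with TPR repeats, by -0.45 (SE 0.11, adjusted p = 0.0181), all by edgeR. The PPID call was lost without DMSO replicate 2, rapamycin replicate 2 or rapamycin replicate 3. The share of all genes called lower was 4.05%. With the replicate number as a block over the 6 HBG1 sgRNA libraries, 13 of the 15 fell, and the share of all genes called lower was then 9.62%. Leaving out 1 library gave 4 to 10, with shares over all genes of 1.66% to 4.42%. DMSO replicate 2, rapamycin replicate 2 and rapamycin replicate 3 each gave the count of 4. With the non-targeting sgRNA, untested, 14 of 15 changes were negative with a median of -0.34. Over all 23675 genes 11053 were negative with that guide, and the median was 0.03.

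AHSA1 was at 91.0, 88.3 and 78.9 CPM with DMSO and at 61.4, 61.1 and 50.7 CPM with rapamycin under the HBG1 sgRNA. HSP90AA1 was at 1400, 1160 and 1170 CPM with DMSO and at 924, 787 and 937 CPM with rapamycin. For both genes the groups did not overlap, beside 25.3% of all genes without overlap (13.1% lower). The fall of FKBP4 by 0.67 on the log2 scale was larger than any fitted change in this list with that guide, without a test of the difference. Of the 12 list genes in the RefSeq promoter table, 5 held a heat shock element core in a window (HSP90AA1, HSP90AB1, STIP1, CHORDC1 and NUDC). The other 7 did not, AHSA1 and PPID among them. Of all promoters of that table, counted by window, 13.5% held this core. Several list genes had more than a single window, so the count by gene and that share are not like for like.

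**Figure D4:**
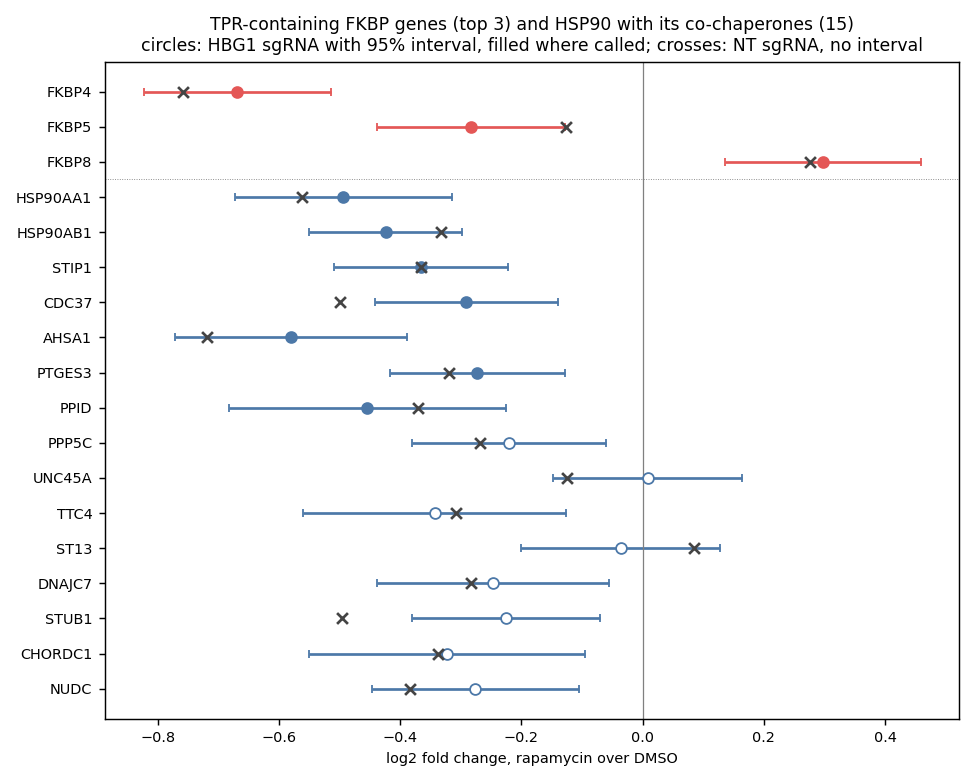
Log2 fold change between rapamycin and DMSO for the 3 TPR-containing FKBP members that passed the test and for HSP90 with its co-chaperones. Circles are edgeR estimates with the HBG1 sgRNA and their 95% intervals, filled where the adjusted p was under 0.05, and crosses are untested estimates with the non-targeting sgRNA. Among the circles, FKBP4 at -0.67 is lowest and FKBP8 at 0.30 is highest, and the cross of FKBP4 lies at -0.76.

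FKBP8 (ENSG00000105701, chromosome 19, 18531751 to 18544077, minus strand) encodes FKBP38, which has TPR repeats and a membrane anchor and holds BCL2 at mitochondria. It was at 284, 242 and 244 CPM with DMSO and at 324, 311 and 311 CPM with rapamycin under the HBG1 sgRNA. The non-targeting libraries read 238 CPM with DMSO and 298 and 278 CPM with rapamycin. Groups were separate within each guide but not over both, since DMSO replicate 1 of the HBG1 sgRNA at 284 was above a non-targeting rapamycin library at 278. The log2 fold change was 0.30 (SE 0.08, adjusted p = 0.0267, edgeR quasi-likelihood), 1.23 times the DMSO level, with pairs at 0.19, 0.37 and 0.35. The untested change with the non-targeting sgRNA was 0.28. The call was lost when 1 of 4 libraries was left out, DMSO replicate 2 (adjusted p = 0.144), DMSO replicate 3 (0.127), rapamycin replicate 2 (0.0527) or rapamycin replicate 3 (0.0784). Of 4 listed partners of FKBP8 (BCL2, BCL2L1, MAP1LC3B and RHEB), 0 passed the edgeR test and 1 had an unadjusted p under 0.05.

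FKBP1A (ENSG00000088832, chromosome 20, 1368978 to 1393172, minus strand) encodes FKBP12, the rapamycin receptor and the source of Fkbp dimerisation domains, so its counts may include reads of the MS2-Fkbp fusion. It was at 242, 279 and 290 CPM with DMSO and at 226, 208 and 258 CPM with rapamycin under the HBG1 sgRNA. The non-targeting libraries read 260 CPM with DMSO and 273 and 241 CPM with rapamycin. Groups overlapped with both guides. The log2 fold change with the HBG1 sgRNA was -0.23 (95% interval -0.42 to -0.03, adjusted p = 0.163, edgeR) and did not pass. With the replicate number as a block over the 6 HBG1 sgRNA libraries it was -0.22 with an adjusted p of 0.0213 (edgeR). That block, the only 1 of 17 alternatives in which FKBP1A passed, was also the only setting among them that used the pairing. It called 17.1% of all genes, beside 6.80% in the main fit. The 3 pairs gave -0.10, -0.42 and -0.17. With the non-targeting sgRNA the untested change was -0.02. The other introduced human parts have their own rows. SS18 changed by 0.27 (adjusted p = 0.253) and MTOR, whose FRB domain is the source of Frb, by 0.06 (adjusted p = 0.857). Neither passed the edgeR test, and counts of both may include reads of the SS18-Frb fusion. SS18 was at 186, 258 and 235 CPM with DMSO and at 210, 314 and 294 CPM with rapamycin under the HBG1 sgRNA, higher in each pair. With the non-targeting sgRNA, untested, SS18 was at 198 CPM with DMSO and at 260 and 281 CPM with rapamycin.

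Reads of FKBP1A can also be shared with near copies. FKBP1C, an intronless gene on chromosome 6, matches 98.1% of the 324 coding bases of FKBP1A in GENCODE 29, and 55.3% of the 50-base windows of that coding sequence occur in it unchanged. FKBP1B, the paralogue for FKBP12.6, matches 76.3% of the 316 bases that could be aligned and shares 0 such windows. The first 60 coding bases of each are shown for this comparison, 5′ to 3′ from the start codon, with bases that differ from FKBP1A in capitals.
FKBP1A: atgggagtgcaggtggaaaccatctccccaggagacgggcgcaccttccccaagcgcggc
FKBP1C: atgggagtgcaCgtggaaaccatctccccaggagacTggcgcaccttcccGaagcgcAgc
FKBP1B: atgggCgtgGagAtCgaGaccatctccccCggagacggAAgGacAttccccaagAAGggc
In this stretch FKBP1C differed at 4 bases and FKBP1B at 13. Per kilobase, FKBP1C was at 2.38% to 4.21% of the FKBP1A level across the 9 libraries. Its change with the HBG1 sgRNA was -0.44 (SE 0.26, adjusted p = 0.373, edgeR). A coding gene of the same strand, AL136531.2, shares 183 exon bases with FKBP1A and changed by -0.32 (adjusted p = 0.195). The antisense transcript SDCBP2-AS1 shares 187 and changed by 0.70 (adjusted p = 0.0592). How reads that fit several of these genes were counted is not given in the sources used here, so the FKBP1A level is uncertain to that extent.

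FKBP1B encodes FKBP12.6, a subunit of ryanodine receptor calcium release channels. It read 1.00, 1.33 and 2.61 CPM with DMSO and 2.06, 1.14 and 1.46 CPM with rapamycin under the HBG1 sgRNA. The change of -0.06 had a 95% interval from -0.96 to 0.83 (adjusted p = 0.956, edgeR). These values came from 31, 38 and 53 counts with DMSO and 40, 24 and 45 counts with rapamycin. FKBP1B shares 464 exon bases (27.67% of its exons) with MFSD2B on the same strand, which was at 21.9 to 31.1 CPM across the HBG1 sgRNA libraries. Of 6 calcium release channel genes (RYR1, RYR2, RYR3, ITPR1, ITPR2 and ITPR3), 0 passed the edgeR test and 0 had an unadjusted p under 0.05. FKBP12 also binds type I receptors of the TGF-beta family. Of 6 tested of 7, 1 rose, beside 2.75% of all genes. It was ACVR1, by 0.47 (SE 0.10, adjusted p = 0.0123), from 25.4 ± 1.25 to 35.4 ± 3.76 CPM (SD, n = 3 each, edgeR adjusted p). That call was lost without DMSO replicate 2, DMSO replicate 3 or rapamycin replicate 2.

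FKBP3 encodes FKBP25, a nuclear member that binds nucleic acid. It was at 43.5, 41.4 and 40.9 CPM with DMSO and at 50.4, 35.2 and 43.8 CPM with rapamycin under the HBG1 sgRNA. The rapamycin libraries lay on both sides of the DMSO ones. The change of 0.04 had a 95% interval from -0.20 to 0.28 (adjusted p = 0.888, edgeR). FKBP3 shares 653 exon bases (28.87%) with PRPF39 on the opposite strand, which changed by 0.04 (adjusted p = 0.834).

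The endoplasmic reticulum members FKBP2, FKBP7, FKBP11 and FKBP14 did not pass the test. FKBP2, a luminal FKBP13, was at 30.9, 26.6 and 25.5 CPM with DMSO and at 33.0, 26.6 and 27.6 CPM with rapamycin under the HBG1 sgRNA, a change of 0.07 (95% interval -0.17 to 0.30, adjusted p = 0.789, edgeR). FKBP7 was at 5.57, 4.33 and 5.26 CPM with DMSO and at 3.72, 4.37 and 2.96 CPM with rapamycin, a change of -0.46 (95% interval -0.95 to 0.02, adjusted p = 0.266, edgeR). For both genes the groups overlapped, for FKBP7 only through rapamycin replicate 2 at 4.37 and DMSO replicate 2 at 4.33. FKBP11, a membrane-bound member typical of secretory cells, ran from 7.61 to 9.69 CPM with DMSO and from 6.3 to 9.29 CPM with rapamycin (change -0.17, adjusted p = 0.635, edgeR). FKBP14, which acts on procollagen and is mutated in a form of Ehlers-Danlos syndrome, ran from 18.2 to 24.1 CPM and from 17.5 to 23.4 CPM (change -0.16, adjusted p = 0.593, edgeR). Their 95% intervals reached from -0.54 to 0.20 for FKBP11 and from -0.47 to 0.15 for FKBP14. Of 13 tested genes of 14 that fold or modify collagen in this compartment, 1 fell and 0 rose, beside 4.05% of all genes called lower. It was the cyclophilin PPIB, by -0.24 (adjusted p = 0.042, edgeR), from 178 ± 5.29 to 150 ± 3.45 CPM (SD, n = 3 each). The PPIB call held in 7 of 17 alternatives (adjusted p from 0.00283 to 0.143, changes from -0.27 to -0.22). It was lost without any 1 of the 3 DMSO replicates, rapamycin replicate 2 or 3, or either non-targeting rapamycin library. The call was also lost without scaling, without the low-count filter and in the 6 HBG1 sgRNA libraries alone with no pairing term.

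Cyclophilins and parvulins, the other peptidyl-prolyl isomerase families, were described beside the FKBP genes. Of 19 genes, 4 fell and 0 rose with rapamycin under the HBG1 sgRNA, with a median of -0.11, beside 4.05% of all genes called lower and a median of 0.02. PPIF, the mitochondrial cyclophilin D, changed by -0.40 (SE 0.07, adjusted p = 0.00197), PPID by -0.45 and PPIH, a spliceosomal cyclophilin, by -0.33 (SE 0.09, adjusted p = 0.03), by edgeR, and the fourth was PPIB. Without 1 library the count ran from 1 to 4, with 1 when DMSO replicate 2, rapamycin replicate 2 or rapamycin replicate 3 was left out and 2 without DMSO replicate 3. PPIH lost its call without any 1 of the 3 DMSO replicates, rapamycin replicate 2 or rapamycin replicate 3. Other genes named for an FKBP-type domain changed on the log2 scale by 0.06 (FKBP9), 0.45 (FKBP10), -0.10 (FKBP15), -0.04 (FKBPL) and 0.08 (FKBP6). None of these passed the edgeR test, and 0 had an unadjusted p under 0.05. In edgeR, 0 of 2 tested steroid receptors (NR3C1 and PGR), 0 of 4 tested calcineurin genes and 0 of 6 glucocorticoid target genes passed. At an unadjusted p under 0.05 these lists had 0, 1 and 1.

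**Figure D5:**
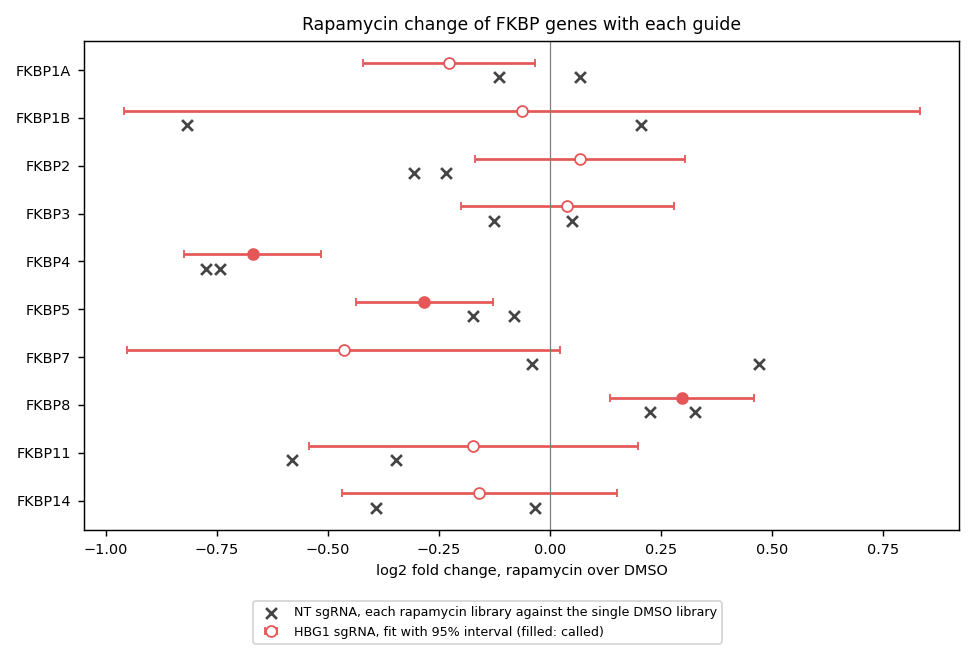
Log2 fold change between rapamycin and DMSO for each FKBP gene. Circles are edgeR estimates with the HBG1 sgRNA and 95% intervals, filled where the adjusted p was under 0.05, and crosses are each non-targeting rapamycin library against the single non-targeting DMSO library. Both crosses of FKBP4 lie at or below -0.74 and both of FKBP8 above 0.

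Rapamycin changes with the non-targeting sgRNA rest on 2 libraries against 1 and were not tested. The signs were the same with both guides for 7 of 10 members (70.0%), beside 68.0% of all genes, and the comparisons share no library. FKBP2, FKBP3 and FKBP7 had opposite signs. The members without overlap between rapamycin and DMSO under the HBG1 sgRNA were FKBP8, higher, and FKBP4 and FKBP5, lower. Of all genes, 25.3% had no overlap there (12.2% higher and 13.1% lower). Over both guides, 5 rapamycin against 4 DMSO libraries, FKBP4 and FKBP5 had none, beside 14.7% of all genes (6.38% higher and 8.29% lower).

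The guides were compared under rapamycin, with 3 and 2 libraries. In edgeR 0 members passed, beside 0.0296% of all genes (0.0169% higher and 0.0127% lower), and DESeq2 and limma voom gave 0 as well. At an unadjusted p under 0.05 there was 1 member, FKBP2, beside 6.27% of all genes. FKBP2 was at 33.0, 26.6 and 27.6 CPM with the HBG1 sgRNA and at 23.2 and 22.1 CPM with the non-targeting sgRNA, a difference of 0.36 (SE 0.13, adjusted p = 0.773, edgeR). FKBP2, FKBP4 and FKBP8 were higher without overlap in the HBG1 sgRNA libraries and FKBP5 was lower, beside 22.6% of all genes without overlap (11.2% higher and 11.3% lower). Under DMSO, with 1 non-targeting library and no test, FKBP7 differed by 0.79 and FKBP11 by -0.31 between the guides. The difference of the rapamycin changes between guides gave 0 members in edgeR, DESeq2 and limma voom, and 0 at an unadjusted p under 0.05. Over all genes edgeR called 0.00422%, and 2.86% had an unadjusted p under 0.05. The difference for FKBP4 was 0.09 with a 95% interval from -0.19 to 0.37. For FKBP5 it was -0.16 (-0.44 to 0.12) and for FKBP8 0.02 (-0.27 to 0.31), so these intervals leave room for differences about as large as the changes of FKBP5 and FKBP8 themselves.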

How the data were processed

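RNA-seq libraries of 9 K562 samples were made from poly-T purified RNA (NEBNext Ultra, as the extract protocol states). The table of whole-number read counts, 1 row per Ensembl gene, is as deposited by the authors. The submitters' processing notes name STAR 2.7.3a, featureCounts, Subread 2.0.0, R 4.1.2, limma 3.34.9, edgeR 3.24.0 and the GRCh38 (hg38) build. Annotation release, strand setting and treatment of multi-mapping reads are not given in the sources used here. GENCODE 29 gave symbols for 58039 of 58347 gene IDs (99.47%) and all gene positions. Promoter windows came from RefSeq (GRCh38.p14).

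Groups and replicate numbers came from sample titles. Genes were filtered with filterByExpr (minimum count 10), which kept 23675, and scaled with TMM (factors 0.9767 to 1.023). One edgeR 4.0.16 quasi-likelihood model with 4 groups over 9 libraries (R 4.3.3) gave log2 fold changes. Benjamini-Hochberg adjustment ran over all genes tested, and a gene with an adjusted p under 0.05 was called. Standard errors and 95% intervals were derived from the F statistic. DESeq2 1.42.0, limma 3.58.1 (voom), other scalings and filters, a replicate block and leaving out each library were alternatives, and the test was tested on simulated data. Depth was 19797409 to 31619671 counts per library. Same-numbered HBG1 sgRNA libraries deviated together (correlations 0.553, 0.278 and 0.231 over 11498 genes). Their numbers were therefore taken as pairs for the per-pair changes and for the replicate block. The main model held no replicate term, so its p-values ignore this pairing. Between guides under rapamycin the correlations were -0.0676 and -0.0687. No replicates were repeats of one library (chi-square per gene at least 4.48).

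The members, lists and comparisons were chosen with earlier results of these data known. Named genes were the 10 members, up to the 3 largest called genes per list and direction, genes overlapping a member, and the other FKBP-domain and introduced genes. One gene of the FKBP-domain list is not reported here. PPIB and FKBP1AP1 were named after their values were seen. Other lists were erythroid and other cell markers, HSP90 co-chaperones, cyclophilins and parvulins, steroid receptors, glucocorticoid targets, calcium release channels, TGF-beta type I receptors, calcineurin, FKBP8 partners and collagen folding genes.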

Additional observations from a re-analysis of the deposited data

Results flagged for a closer look

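FKBP2, which passed no test, had differences of opposite sign with the 2 guides. All 3 HBG1 sgRNA pairs had more FKBP2 with rapamycin, by 0.10, 0.00 and 0.12 on the log2 scale, while both non-targeting rapamycin libraries were below the single DMSO library, by -0.23 and -0.30. The difference between the guides was 0.337 on the log2 scale, with a 95% interval from -0.09 to 0.76. It did not pass the edgeR quasi-likelihood interaction test (adjusted p = 1.0). It rests on 1 non-targeting DMSO library. The fitted HBG1 sgRNA value of 0.07 (adjusted p = 0.789, edgeR) kept its sign in 15 of 17 alternatives and was -0.04 in the additive model and -0.03 without rapamycin replicate 1.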

How the results depend on the processing

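FKBP4 passed under all 17 alternatives, with changes from -0.70 to -0.62 and adjusted p-values up to 0.00217. FKBP5 kept its direction in all 17 and its call in 12 (adjusted p-values from 0.00211 to 0.129), and FKBP8 kept its direction in 17 and its call in 13 (0.00112 to 0.144). Leaving out 1 library gave 1 to 3 members called. The 1609 genes called with rapamycin became 3263 in an additive model of guide and rapamycin and 3441 with the replicate block, and 664 to 1731 without 1 library. The lowest count came without DMSO replicate 2, with 749 without DMSO replicate 3 and 693 without rapamycin replicate 3. HSP90 and co-chaperone genes called lower went from 7 to 13 in the additive model and 13 with the replicate block, and 4 to 10 without 1 library, and the cyclophilin and parvulin count of 4 ran from 1 to 4 without 1 library.

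Between guides under rapamycin, 7 genes became 13 with DESeq2, 91 with no filter, 21 with the replicate block over 9 libraries and 3 to 8 without 1 library (3 without non-targeting rapamycin replicate 1). The single gene of the interaction became 0 with DESeq2, 3 with limma voom, 8 with no filter, 0 without scaling, 3 with the replicate block over 9 libraries, 5 with the block within each guide and 0 to 4 without 1 library. In none of these alternatives did a member pass in the guide or interaction comparison. The replicate block over the 6 HBG1 sgRNA libraries changed the call of FKBP1A and of no other member. It was the only 1 of 17 alternatives to do so, and no other of the 17 used the pairing. The causes were not tested. FKBP1B, at 21 to 53 counts per library, ranged from -0.33 to 0.41 without 1 library.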

Other observations

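FKBP1AP1, a processed pseudogene that matches 94.6% of the compared coding bases of FKBP1A, was chosen after its values were seen. It held 5, 4 and 2 counts in the HBG1 sgRNA libraries with DMSO and 10, 13 and 15 with rapamycin. The non-targeting libraries held 6 counts with DMSO and 9 and 7 with rapamycin. It was at 0.487 to 0.618 CPM in the HBG1 sgRNA rapamycin libraries and at 0.0984 to 0.355 CPM in all others. Only through those rapamycin libraries did it pass the low-count filter. The groups did not overlap under the HBG1 sgRNA, beside 25.3% of all genes (12.2% higher). The edgeR log2 change was 1.95 (adjusted p = 0.156). As these values also admitted and selected the gene, they are no test of a change. Of the 275 windows of 50 bases in the FKBP1A coding sequence, 33 occur unchanged in this pseudogene, and how such reads were counted is not given in the sources used here.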
